A study of Nasturtium officinale with 24 samples.

Results

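The contigs described here are the 60 transcripts of watercress (Nasturtium officinale) whose response to submergence was larger in the stem than in the petiole by the widest margin, out of 80741 contigs measured. A contig is a transcript sequence assembled from reads, and several contigs can belong to 1 gene. The response of a contig was the log2 ratio of its level under water to its level in air, log2((submerged CPM + 1)/(air CPM + 1)), where CPM is the estimated count divided by the library total and multiplied by 1000000, averaged over the libraries of a group. A contig was eligible with a mean level of at least 4 CPM over the 8 groups, a stem response of at least 0.8 on both days and a stem to petiole ratio in air under 2 on the log2 scale, in either direction, on both days. Of the 1674 eligible contigs, the 60 with the highest lower value of the stem minus petiole difference at 1 and 2 days were taken.

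Plants were about 3 weeks old and were kept in air or completely submerged, and stems and petioles (leaf stalks) were harvested apart after 1 day and after 2 days. Each library came from a pool of 5 plants, with 3 libraries in each of the 8 groups: stem or petiole, in air or submerged, for 1 or 2 days. The labels name no strain, mutant or transgene in any group, and the treatment was submergence alone. P-values below measure the spread between these pools. Library totals ran from 17617430 to 48928331 estimated counts, and a count of 3, taken as the floor, was 0.0613 to 0.17 CPM. At least 1 library lay below this floor in GEMC01067524.1, GEMC01014963.1, GEMC01012329.1, GEMC01049774.1, GEMC01057665.1 and GEMC01058892.1. Their responses enter the medians and counts below and rest in part on values under the floor.

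Watercress, a relative of cabbage, grows in and beside streams. Water slows gas exchange, so that submerged shoots hold more ethylene and receive less oxygen and carbon dioxide, and some wetland species then lengthen the organ that can bring leaves back to the air. Underwater stem elongation in watercress is the subject of the study, and growth itself is not among the values analysed here. The files pair 0 of the contig identifiers with gene names, so no role is given to a contig and the tissues could not be checked against marker genes. In samples of whole organs, fewer cells of a type and less RNA per cell cannot be told apart.

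The stem response of the 60 contigs had a median of 1.70 at 1 day (0.82 to 6.75) and 1.48 at 2 days (0.82 to 6.02), all on the log2 scale. In the petiole the median response was 0.88 at 1 day (-0.55 to 4.39) and 0.51 at 2 days (-0.89 to 4.37). The stem minus petiole difference had a median of 1.00 at 1 day and 0.98 at 2 days, against -0.23 and -0.26 in the other 1614 eligible contigs. These values chose the contigs and are given as a description. All 3 submerged stem libraries lay above all 3 stem libraries in air on both days for 55 of the 60, or 91.7%. The share was 95.9% of the other eligible contigs and 15.6% of the 25997 contigs with at least 4 CPM. The rule required a stem response of at least 0.8, so the excess over 15.6% is fixed by the choice. For 5 contigs, GEMC01067524.1, GEMC01045718.1, GEMC01049774.1, GEMC01045719.1 and GEMC01045721.1, the stem libraries overlapped on at least 1 day.

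**Figure D1:**
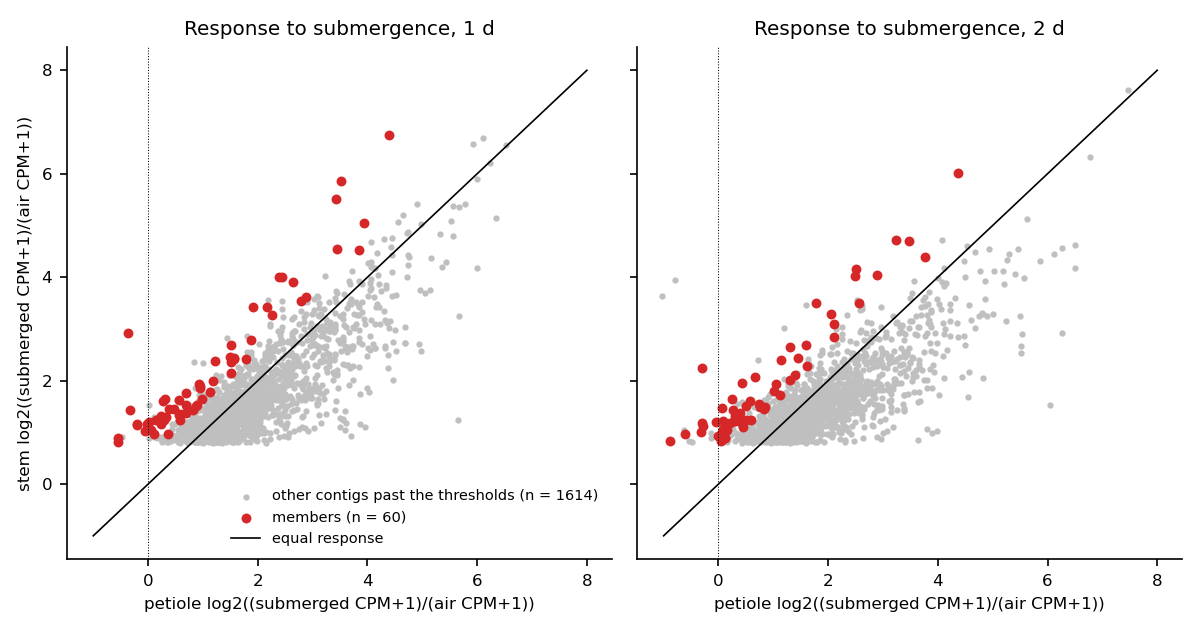
Stem response against petiole response at 1 day (left) and 2 days (right), as log2((submerged CPM+1)/(air CPM+1)) of group means. Red points are the 60 members, grey points the other 1614 eligible contigs, and the line marks equal responses: all members lie above it by the rule.

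The petiole response divided the contigs into 3 sets by its size. In 22 contigs it was at least 0.8 on both days. By this measure, with its constant of 1, these were raised under water in both organs and more in the stem. Their median response at 1 day was 3.48 in stems and 2.33 in petioles. Of these, GEMC01014963.1 and GEMC01057665.1 each had at least 1 library of petioles in air at 0 CPM at 1 day. In 7 contigs the petiole response was below 0 on both days. The other 31 lay between, with a median petiole response of 0.57 at 1 day and 0.30 at 2 days beside 1.44 and 1.24 in the stem. Without replicate 1 of submerged petioles at 1 day, 4 contigs in place of 7 were below 0 on both days and 21 in place of 22 were at least 0.8. Among the other 1614 eligible contigs 90.2% had a petiole response of at least 0.8 on both days.

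GEMC01018686.1 (752 bases) was the most abundant member by CPM and went in opposite directions in the organs. In stems it stood at 322, 376 and 471 CPM in air and at 1258, 793 and 1117 CPM under water at 1 day. At 2 days the stem libraries were at 332, 403 and 416 CPM in air and 645, 653 and 744 CPM under water. The stem groups did not overlap on either day. Petiole libraries were at 130, 171 and 137 CPM in air and 102, 114 and 130 CPM under water at 1 day, where the groups overlapped by a narrow margin. At 2 days petioles had 141, 164 and 163 CPM in air and 89.1, 72.35 and 89.7 CPM under water, so that every submerged petiole library was lower. The difference of the responses was 1.77 at 1 day and 1.72 at 2 days on the log2 scale. With TMM-scaled totals the difference was 1.93 and 1.73, but the stem response at 2 days was 0.74, under the 0.8 that the rule requires, so the contig left the list. Per length, its mean of 1388 TPM in submerged stems at 1 day compared with 152 TPM in submerged petioles.

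GEMC01015838.1 (838 bases), chosen for description after its values were seen, showed the same opposition at a lower level. Stems held 16.9, 13.7 and 16.9 CPM in air and 34.6, 25.2 and 26.2 CPM under water at 1 day. Petioles held 24.9, 26.7 and 34.7 CPM in air and 21.8, 17.7 and 18.3 CPM under water. In air every petiole library was above every stem library, and under water every stem library was above every petiole library. At 2 days stems went from 14.6 ± 4.08 to 34.5 ± 4.77 CPM (SD, n = 3) and petioles from 23.8 ± 3.23 to 19.2 ± 2.03 CPM. The petiole groups overlapped on that day, with a lowest library of 20.3 CPM in air and a highest of 20.7 CPM under water. The list chosen on TPM did not keep this contig. Its estimated counts were whole in every library.

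GEMC01043368.1 (1309 bases) had the most negative mean petiole response after GEMC01018686.1, and its libraries scattered. In petioles it stood at 3.69, 7.34 and 11.9 CPM in air and at 0.153, 5.16 and 9.5 CPM under water at 1 day, which overlap. The submerged library at 0.153 CPM is replicate 1, the one whose omission left only 4 contigs below 0. GEMC01043368.1 stayed among these 4. The 5.16 and 9.5 CPM that remain have a mean slightly under the mean of 7.65 CPM in air. In stems the submerged libraries, at 12.8, 10.1 and 7.79 CPM, lay above those in air at 2.86, 4.55 and 7.71 CPM at 1 day, by a narrow margin.

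The contig with the highest rank varied widely between libraries. GEMC01067524.1 (3766 bases) had a stem minus petiole difference of 3.28 at 1 day and 2.54 at 2 days. Stem libraries at 1 day were at 3.16, 0.808 and 1.81 CPM in air and 15, 35.4 and 12.7 CPM under water. Petiole libraries in air were at 0.224, 13.6 and 0.288 CPM on that day and at 0.0632, 15.1 and 0.264 CPM at 2 days. Replicate 2 therefore supplied nearly all of the petiole mean in air on both days. Without replicate 2 of petioles in air on both days, the petiole response turned from -0.37 to 1.82 at 1 day and from -0.29 to 2.10 at 2 days, and the difference fell to 1.095 and 0.147. These responses rest on petiole means in air of 0.256 and 0.164 CPM, with replicate 1 under the floor of 3 counts at 2 days. The contig then left the list, and it is 1 of the 7 counted above as below 0. Under water petioles stood at 0.272, 5.08 and 4.93 CPM and at 9.4, 1.7 and 0.909 CPM. The petiole groups overlapped on both days.

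Among contigs raised in both organs, GEMC01071264.1 (674 bases) had the strongest stem response of all 60 and also the strongest petiole response. Stem libraries went from 1.27, 2.07 and 1.85 CPM in air to 239, 280 and 359 CPM under water at 1 day, and from 1.75, 1.84 and 1.64 CPM to 126, 188 and 216 CPM at 2 days. Petiole libraries went from 0.681, 0.565 and 2.29 CPM to 29.5, 47.1 and 57.7 CPM at 1 day. At 2 days petioles were at 0.752, 0.526 and 0.775 CPM in air and 26.3, 32 and 42.9 CPM under water. In air the organs overlapped at 1 day, and all stem libraries were higher at 2 days. Under water the stem libraries were all above the petiole libraries on both days, by 2.68 on the log2 scale of the means at 1 day and 2.36 at 2 days.

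GEMC01065084.1 (2945 bases) had the next highest mean stem response and started lower in the stem. In air it stood at 8.26, 9.66 and 11.3 CPM in stems and 23.8, 18.9 and 20.7 CPM in petioles at 1 day. Under water stems held 399, 450 and 610 CPM and petioles 170, 242 and 297 CPM. The order of the organs was thus opposite in air and under water, with no overlap in either. At 2 days the submerged groups, at 169, 229 and 310 CPM in stems and 158, 215 and 177 CPM in petioles, overlapped.

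GEMC01030515.1 (1066 bases) followed GEMC01071264.1 in mean petiole response and had a lower mean in the stem in both states. Stems went from 1.51 ± 0.102 to 57 ± 20.7 CPM and petioles from 3.79 ± 2.52 to 67.7 ± 22.4 CPM at 1 day (SD, n = 3). Its response at 1 day was 4.53 in stems and 3.84 in petioles, with a lower mean in stems both in air and under water. It stayed among the 60 in 10 of the 24 omissions of a single library.

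**Figure D2:**
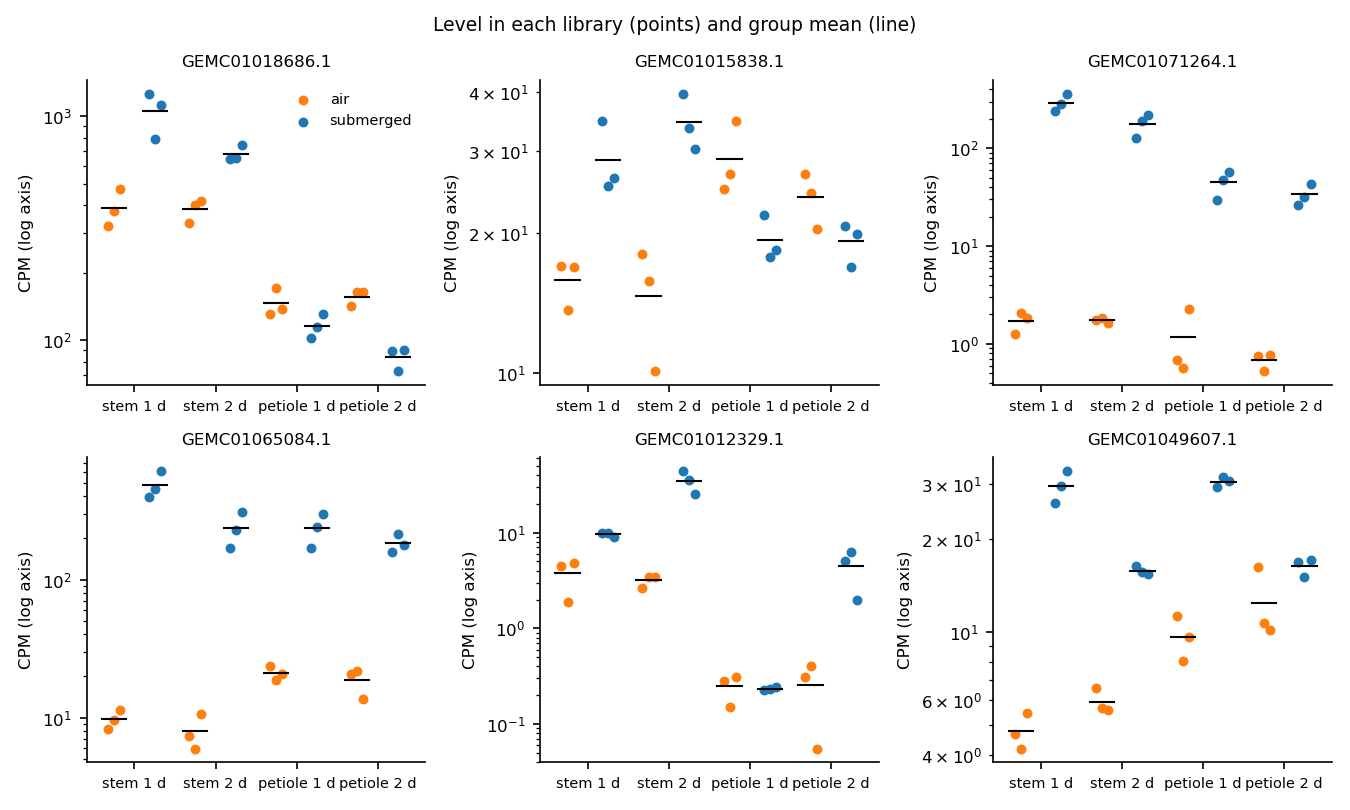
Level of 6 members in each of the 24 libraries, in CPM on a log axis, with orange points for air, blue points for submergence and a line at each group mean. By group mean, GEMC01018686.1 and GEMC01015838.1 are higher under water in stems and lower in petioles, where the libraries overlap on 1 of the days. GEMC01071264.1 and GEMC01065084.1 are higher in both organs, and under water GEMC01012329.1 is higher and GEMC01049607.1 lower at 2 days.

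How the levels of the organs compared, before and during submergence, varied among the contigs. In 25 of the 60 the mean level was lower in stems than in petioles in air and higher in stems under water, on both days. In 13 it was higher in stems in both states, and in 11 it was lower in stems in both states. The remaining 11 had no single order on the 2 days. For the other eligible contigs the shares were 1.43% for the first pattern, 20.3% for the second and 29.9% for the third. The rule fixed the difference between these ratios, and the air libraries enter both ratio and response, so the shares are a description. With TMM factors, a scaling that sets the bulk of contigs equal between libraries, 25 contigs again had the first pattern, and 23 had it without replicate 1 of stems in air at 1 day.

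All stem libraries in air lay below all petiole libraries in air on both days for 13 of the 60, against 7.31% of the other eligible contigs and 6.72% of the 25997 contigs. Under water all stem libraries lay above all petiole libraries on both days for 22 of the 60, against 7.99% of the other eligible contigs and 14.2% of the 25997. The rule chose the members from the means of these same libraries, so both counts are a description. GEMC01006446.1 (604 bases), named after its values were seen, is one of the 11 that stayed lower in stems. It stood at 6.29, 3.9 and 9.18 CPM in stems and 15.2, 21.5 and 33.3 CPM in petioles in air at 1 day. Under water it stood at 207, 156 and 159 CPM in stems and 190, 322 and 283 CPM in petioles, where the organs overlapped. GEMC01058949.1, a contig of 5704 bases with the second highest mean CPM, had a wide spread in petioles in air at 1 day, with 237, 55.5 and 30.6 CPM, beside 328, 318 and 284 CPM under water. Stems held 37.1, 67.2 and 111 CPM in air and 251, 437 and 278 CPM under water on that day, so that the submerged organs overlapped.

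**Figure D3:**
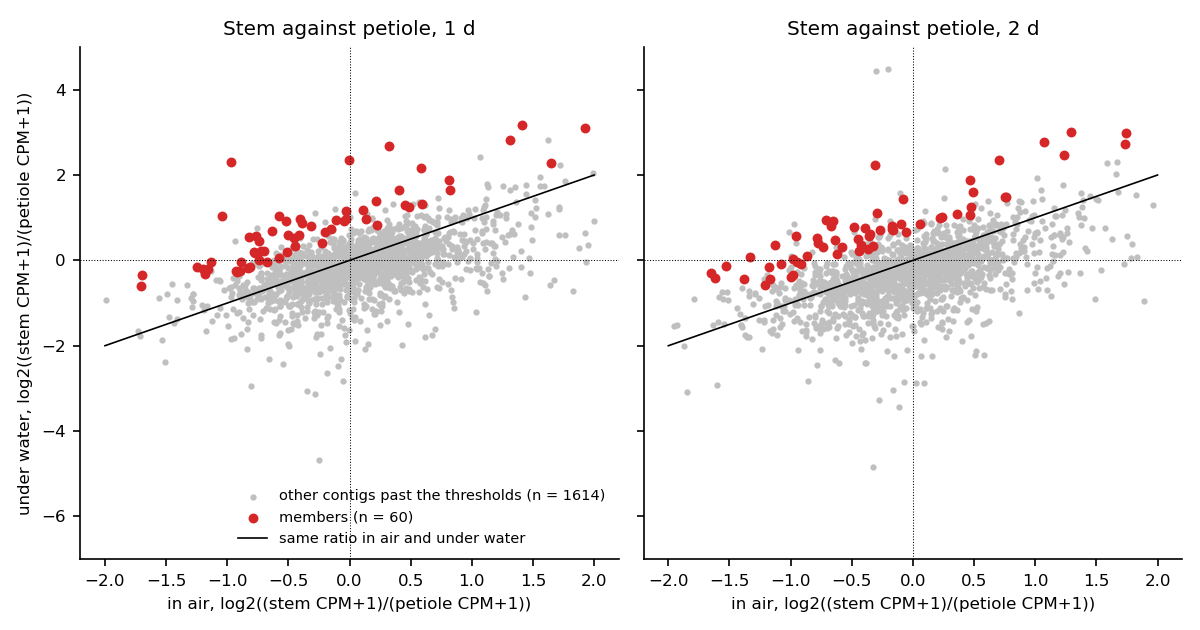
Ratio of stem to petiole under water against the same ratio in air, both as log2((stem CPM+1)/(petiole CPM+1)) of group means, at 1 day (left) and 2 days (right). Red points are the 60 members, grey points the other 1614 eligible contigs, and the line marks an equal ratio in both states: 25 members lie to the upper left of the dotted lines on both days.

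The list was then chosen again from 2 replicates of every group and measured in the third, which took no part in that choice. At 1 day the median stem minus petiole difference of the 60 contigs so chosen was 1.07, 1.05 and 1.09 in the libraries that chose them. In the replicate left out it was 0.87 for replicate 1, 0.66 for replicate 2 and 0.94 for replicate 3. At 2 days it was 1.105, 1.02 and 1.20 in the choosing libraries and 0.78, 0.90 and 0.82 in those left out. Between 46 and 52 of the 60 contigs had a difference above 0 in the replicate left out, 76.7% to 86.7%. Among the other eligible contigs of each choice that share was 26.1% to 36.5%. The median difference was above 0 in the libraries left out, at a smaller size than in the choosing ones. Each of these lists kept 39 to 44 of the 60 members. The other eligible contigs had ranked lower on this difference in the choosing libraries. A replicate left out is 1 library per group, and contigs are not independent of each other, so these shares are a description and were not tested.

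Levels in the organs were measured the same way. In the replicate left out, the stem was above the petiole under water in 42 to 50 of the 60 chosen contigs, 70% to 83.3%, against 28.3% to 54.9% of the other eligible contigs. In air the stem was below the petiole in 24 to 37 of the 60, 40% to 61.7%, against 31.1% to 55.1%. At 2 days in replicate 3 the share in air was 51.7% for the chosen contigs and 55.1% for the others. No test was made of these shares.

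**Figure D4:**
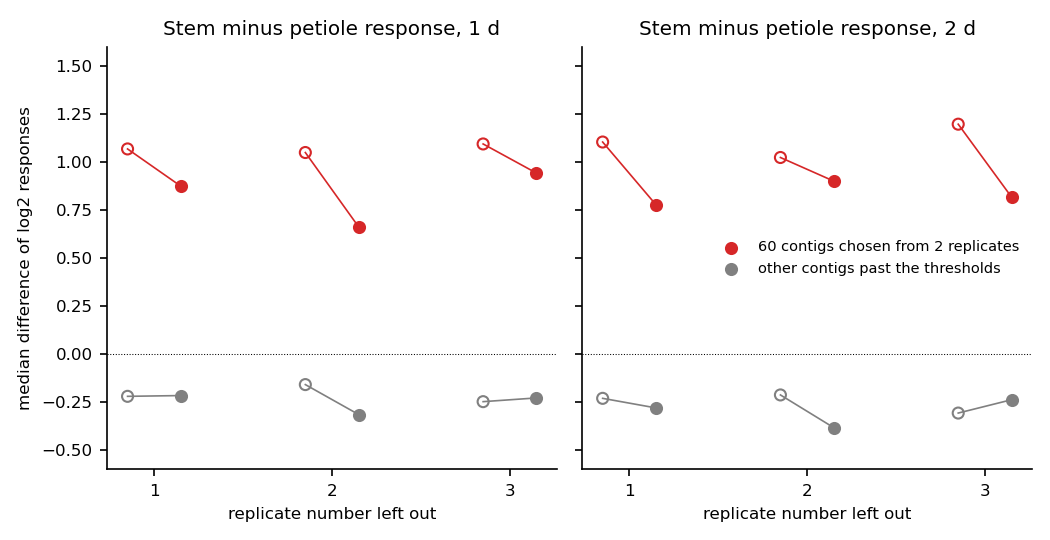
Median stem minus petiole difference of the log2 responses, by the replicate number left out, at 1 day (left) and 2 days (right). Open points are the libraries that chose the contigs, filled points the replicate left out, red the 60 contigs chosen and grey the other eligible contigs: the red filled points lie between 0.66 and 0.94.

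The days were the contrast that the rule did not use, and they were tested with edgeR's quasi-likelihood test over all 53919 contigs that passed its low-count filter, as did all 60 members. Under water most members were lower at 2 days than at 1 day. In submerged stems 47 of 60 had a negative fitted change, with a median of -0.29 against -0.005 over all contigs tested, and 5 fell and 1 rose at an adjusted p under 0.05. The background was 0.786% of contigs falling and 0.831% rising. In submerged petioles 42 of 60 had a negative change, with a median of -0.18 against -0.02, where 2 fell and 1 rose against backgrounds of 0.716% and 0.976%. In air no member was called by edgeR in either organ, against a background of 0% in stems and 0.0148% in petioles. At an unadjusted p under 0.05 edgeR gave 3 members higher and 0 lower in stems in air and 2 higher and 0 lower in petioles in air. Shares of all contigs at this unadjusted level are not given. Neither DESeq2 nor limma-voom called any member in air. Over all contigs DESeq2 called 17 higher and 23 lower in stems in air and 172 and 90 in petioles in air, and limma-voom called 0. The medians in air were 0.09 and 0.11. All submerged stem libraries at 2 days lay below all those at 1 day for 18 of the 60, against 9.65% of the 25997 contigs, and the same held in submerged petioles for 15 of the 60, against 7.14%. In mean CPM, 41 of the 60 members were lower at 2 days in submerged stems, and 58.4% of the other eligible contigs were too, with medians of -0.15 and -0.10. In submerged petioles 40 members were lower, and 45.2% of the other eligible contigs, with medians of -0.13 and 0.04.

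GEMC01013959.1 (1361 bases) fell most in submerged stems, from 85.6, 113 and 136 CPM at 1 day to 14.5, 26.1 and 37 CPM at 2 days. The groups did not overlap, and the log2 change was -2.23 ± 0.32 (SE, n = 3; edgeR adjusted p = 0.0022), called in all 13 other fits. In submerged petioles it fell from 16.3, 24.6 and 22.3 CPM to 6.41, 8.59 and 11.7 CPM (log2 change -1.28 ± 0.32; edgeR adjusted p = 0.049), a call that ended in 9 of 13 other fits. In air it stood between 0.404 and 1.2 CPM in all 12 libraries, so that every submerged library at 2 days was above every library in air.

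GEMC01049607.1 (1255 bases) fell in both organs with close replicates. Submerged stems held 26.2, 29.7 and 33.1 CPM at 1 day and 16.3, 15.5 and 15.4 CPM at 2 days (log2 change -1.04 ± 0.16 SE; edgeR adjusted p = 0.0032). Submerged petioles held 29.4, 31.7 and 30.7 CPM and then 16.8, 15 and 17 CPM (log2 change -0.93 ± 0.16 SE; edgeR adjusted p = 0.0069). The stem and petiole libraries under water lay at nearly the same level on each day. In air petioles held 11.3, 8.04 and 9.61 CPM at 1 day and stems 4.65, 4.18 and 5.45 CPM, all below the petioles. Its submergence response also differed between the days, by -1.41 ± 0.23 in stems (log2, SE; edgeR adjusted p = 0.020) and by -1.33 ± 0.23 in petioles (edgeR adjusted p = 0.029). It was the only member called in this time by treatment test in either organ, against backgrounds of 0.0445% and 0.0872% with a smaller response at 2 days. These calls ended in 8 and 6 of 19 other fits. The petiole call for the days ended in the fit to the 6 libraries compared (edgeR adjusted p = 0.103), and the stem call for the days held in all 13 other fits.

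GEMC01041692.1 (1187 bases) fell in submerged stems from 31.1, 35.1 and 37.9 CPM to 20.5, 14.9 and 15.6 CPM, with no overlap (log2 change -1.16 ± 0.27 SE; edgeR adjusted p = 0.036). The contig with the next identifier, GEMC01041693.1 (1220 bases), went down as well, from 108 ± 17.8 to 61.8 ± 4.54 CPM (SD, n = 3; log2 change -0.94 ± 0.21 SE; edgeR adjusted p = 0.028). In GEMC01053333.1 (865 bases) the level fell, from 165 ± 22.7 to 108 ± 4.2 CPM (log2 change -0.74 ± 0.17 SE; edgeR adjusted p = 0.028). The last 2 fall outside the rule for named contigs and are given to complete the 5. With any 1 submerged stem library left out, the number of members called in this contrast went from 6 to between 2 and 4. Over all contigs these fits called 90 to 423 higher and 91 to 287 lower, against 448 and 424 with all libraries. The calls of GEMC01041692.1, GEMC01041693.1 and GEMC01053333.1 ended in 7, 5 and 5 of 13 other fits.

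GEMC01012329.1 (1662 bases) was the 1 member called higher at 2 days by edgeR, in both organs. In submerged stems 13 of the 60 had a positive fitted change, and limma-voom called 2 members higher, against 691 of 53919 contigs. For GEMC01012329.1 submerged stems went from 10, 9.95 and 8.99 CPM at 1 day to 44, 35.7 and 25.3 CPM at 2 days (log2 change 1.72 ± 0.39 SE; edgeR adjusted p = 0.029). Submerged petioles went from 0.227, 0.23 and 0.242 CPM to 5.09, 6.27 and 1.96 CPM (log2 change 4.24 ± 0.50 SE; edgeR adjusted p = 0.00074). At 1 day the submerged petioles were level with petioles in air, at 0.284, 0.151 and 0.312 CPM, while the submerged stems were already above stems in air, at 4.5, 1.9 and 4.87 CPM. Its lowest estimated count in any library was 1, in petioles in air. The stem to petiole ratio under water was 3.11 at 1 day and 2.72 at 2 days on the log2 scale. Submerged means at 2 days were 34.96 CPM in stems and 4.44 CPM in petioles, against 3.18 and 0.258 CPM in air. The responses on that day were 3.10 in stems and 2.11 in petioles. The constant of 1 added to CPM is larger than the petiole mean in air. By plain ratio of these means the petiole rose more at 2 days. The larger stem response on that day thus depended on the constant. The stem call ended in 5 of 13 other fits, and the petiole call ended in the fit to the 6 libraries compared (edgeR adjusted p = 0.103).

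**Figure D5:**
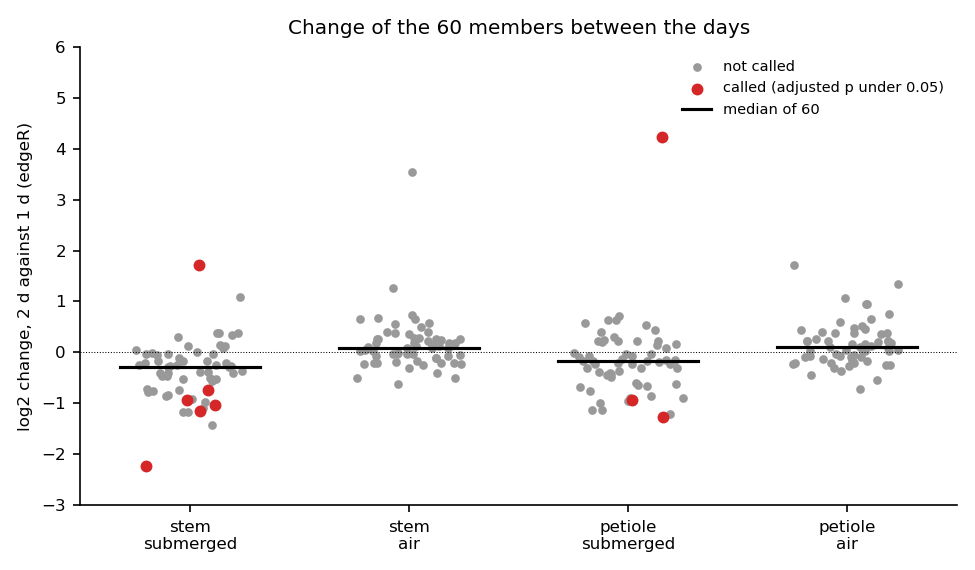
Fitted log2 change from 1 day to 2 days of each of the 60 members, by organ and treatment, with the median as a line and called contigs in red. The medians are -0.29 and -0.18 in submerged stems and petioles and 0.09 and 0.11 in air.

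Library scaling moves the days. From library totals to TMM factors, the median response of contigs with at least 4 CPM moved by 0.10 in stems at 1 day and by -0.07 at 2 days, and the median stem to petiole ratio in air by -0.20 and -0.16. Fitted with library totals alone, the 60 members had a median change of -0.16 in submerged stems, against a median of 0.12 for all contigs tested. The members' median lay below that of all contigs under both scalings. Most of all contigs are not raised under water, and the other eligible contigs also fell in submerged stems. Their median in mean CPM was -0.10, beside -0.15 for the members.

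The contrasts that the rule used were fitted as well, and their counts are a description: the rule chose the members for these differences in the same libraries, so an excess over the background is fixed by the choice. The interaction of organ and treatment, which asks whether a response differs between stem and petiole, called 3 of the 60 members at 1 day and 5 at 2 days with a larger stem response, against 0.0705% and 0.271% of all contigs. GEMC01018686.1 and GEMC01015838.1 were called on both days. The fitted stem minus petiole difference was above 0 in 59 of the 60 members at 1 day and in 58 at 2 days. Its medians were 1.26 and 1.06, against -0.05 and -0.01 over all contigs tested. The fit to the groups compared alone called 0 and 3 members, against 4 and 126 of all contigs, and DESeq2 called 17 and 13, against 302 and 654. In the former, 36 and 40 members had an unadjusted p under 0.05, a level with no share of all contigs here. Submergence against air was called higher for 56 and 49 members in stems, where the background was 9.99% and 10.4% and the rule required a stem response of at least 0.8, and for 33 and 24 in petioles, against 13.5% and 16.3%. Only GEMC01018686.1 and GEMC01015838.1 had all submerged petiole libraries below all petiole libraries in air on 1 of the days, 2 days for the former and 1 day for the latter, against 24% and 15.7% of contigs.

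Some members have nearby identifiers. In 7 runs, 17 members lie within 10 numbers of the next, so that the 60 members sit at 50 places in the numbering. The longest run is that of GEMC01045718.1, GEMC01045719.1, GEMC01045720.1 and GEMC01045721.1, of 245 to 551 bases, named after their values were seen. In this run stem libraries of replicate 2 under water at 1 day were the lowest of their group for each contig, at 12.6, 5.59, 43 and 173 CPM, beside 32.6, 16.1, 103 and 279 CPM in replicate 1. A second run, GEMC01047879.1, GEMC01047881.1 and GEMC01047882.1, had its highest value in the same library, with 134, 87.9 and 176 CPM. Whether neighbours in number belong to 1 gene is not stated in the files. Counts were whole, within 1e-06, in every library for 11 of the 60, against 15.7% of the other eligible contigs. Reads shared by near-identical contigs are divided between them in such estimates, so the separate levels of the others are uncertain.

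The median length of the members was 1046 bases (245 to 5704), against 1253 bases for the other eligible contigs and 697 bases for all contigs. The median level over the 8 groups was 17.8 CPM (4.33 to 376), against 16.8 CPM. Replicates of the members varied by a median of 18.9% to 26.3% (SD over mean, n = 3) in the stem groups and 21.5% to 36.1% in the petiole groups, with the widest in petioles in air at 1 day. The corresponding medians of the other eligible contigs were 13.8% to 21.2% and 17.4% to 30.4%. In every group the median of the members was the higher one. After rounding, counts of 0 occurred in 3 members, GEMC01014963.1 in 1 library and GEMC01057665.1 and GEMC01058892.1 in 2 each.

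At the edge of the list the values run on without a step. The last members, GEMC01031638.1 and GEMC01059514.1, had a lower difference of 0.604 and 0.601 on the log2 scale, and the first contigs outside, GEMC01030501.1 and GEMC01067317.1, had 0.594 and 0.594. GEMC01059514.1 (2014 bases) was steady in stems, with 11.5, 11 and 10.8 CPM in air and 20.4, 21.7 and 25.6 CPM under water at 1 day. GEMC01030501.1 (474 bases), outside, went from 118 ± 40.2 to 419 ± 111 CPM in stems on that day and from 86 ± 69.5 to 202 ± 33.6 CPM in petioles (SD, n = 3). With TMM-scaled totals the rule chose 51 of the 60 again. With each of the 24 libraries left out in turn the rule chose 45 to 56 of the 60 again, fewest without replicate 1 of stems in air at 1 day, and 25 contigs were chosen every time.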

How the data were processed

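RNA from stems and petioles was sequenced in 24 libraries made with a protocol that keeps no strand, so antisense reads cannot be told apart. The authors deposited, for each library, estimated counts and TPM per contig with contig length and effective length, per the file headers; kallisto, edgeR and limma are named per the submitters' processing notes, without versions, and the build of the contig set is not given in the sources used here. The deposited estimated counts were divided by their sum to give CPM, and group means gave the responses. The constant of 1 added to CPM understates changes of low contigs, and CPM is not adjusted for length. Members and lists were chosen with earlier results of these data known.

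Estimated counts were rounded and fitted with edgeR 4.0.16 (R 4.3.3; quasi-likelihood, TMM, 1 mean for each of the 8 groups, all 24 libraries). Contigs passed filterByExpr with a minimum count of 10 and a minimum total of 15, which left 53919, and p-values were adjusted by Benjamini-Hochberg over them (threshold 0.05). The script was tested on simulated data. Alternatives were DESeq2 1.42.0, limma-voom (limma 3.58.1), library totals alone, no filter, a minimum count of 30, only the groups compared, the replicate number as a block, and each library left out.

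Named contigs were the 2 with the highest and lowest rank, the 2 next outside, the 2 highest in mean CPM and in stem response, the 2 with the most negative and most positive petiole response, and up to 2 rising and 2 falling among those called for the days. Same-numbered libraries deviated together (correlation over 0.1 in all 3 pairs) in petioles in air between the days (0.23 to 0.41) and in petioles between air and submergence at 1 day (0.19 to 0.52) and 2 days (0.11 to 0.25), which comes from the data and not from the labels.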

Additional observations from a re-analysis of the deposited data

Results flagged for a closer look

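The submergence response of GEMC01049607.1 differed between the days by the test of the difference itself. It was smaller at 2 days by -1.41 in stems and by -1.33 in petioles (log2, time by treatment term of edgeR's quasi-likelihood fit).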

How the results depend on the processing

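Counts of members called depended on the tool, and the cause was not tested. For the days in submerged stems, 6 members became 12 with limma-voom and 12 with only the groups compared. Over all contigs the main fit called 448 higher and 424 lower, limma-voom 691 and 714, and the groups alone 499 and 754. For the days in submerged petioles, 3 became 8 with DESeq2 and 0 with only the groups compared, where 2 were higher and 17 lower at an unadjusted p under 0.05. That unadjusted level has no share of all contigs here. Over all contigs the main fit called 526 higher and 386 lower, DESeq2 1352 and 1599, and the groups alone 0 and 0. The time by treatment count of 1 became 3 with DESeq2 in each organ, and in petioles 2 with library totals alone, 2 with the stricter filter and 0 with only the groups compared. Over all contigs in stems, the main fit called 47 higher and 24 lower and DESeq2 445 and 398. In petioles the main fit called 60 and 47, DESeq2 494 and 508, and library totals alone 65 and 28. There the stricter filter called 85 and 79, and the groups alone 3 and 2. The organ by treatment count of 3 at 1 day became 17 with DESeq2, 6 with the replicate block and 0 with only the groups compared, and that of 5 at 2 days became 13 with DESeq2, 2 with limma-voom, 2 without a filter and 3 with only the groups compared. Over all contigs, 38 larger stem responses were called at 1 day, 302 with DESeq2, 44 with the block and 4 with the groups alone. At 2 days these were 146, 654 with DESeq2, 89 with limma-voom, 103 without a filter and 126 with the groups alone. With the replicate block the days gave 7 members in submerged stems and 4 in submerged petioles. Over all contigs the block gave 467 higher and 476 lower in stems, and 495 and 341 in petioles. Chosen on TPM, the list kept 37 of 60 members. With libraries left out, the counts ran from 2 to 4 and 2 to 3 for the days in submerged stems and petioles, stayed at 0 in air, and ran from 0 to 1 and 0 to 2 for time by treatment in stems and petioles. They ran from 2 to 4 on both days for organ by treatment, from 51 to 56 and 41 to 47 for submergence in stems and from 28 to 33 and 20 to 24 in petioles. These ranges count calls in either direction. Over the 54998 to 55144 contigs tested, these fits called 90 to 423 higher and 91 to 287 lower for the days in submerged stems. In submerged petioles they called 156 to 747 and 65 to 1790. Time by treatment gave 3 to 77 and 1 to 26 in stems, and 3 to 88 and 4 to 78 in petioles. Larger stem responses numbered 16 to 142 at 1 day and 46 to 140 at 2 days. Submergence was called higher for 4039 to 4629 and 4251 to 4621 in stems, and for 5509 to 7560 and 7142 to 8066 in petioles. In petioles the main fit called 33 higher and 1 lower at 1 day, and 24 higher and 1 lower at 2 days. The list kept 39 to 56 members, and the difference in the replicate left out was 0.66 to 0.94 at 1 day and 0.78 to 0.90 at 2 days. The counts by petiole response and organ level without single libraries or with other scalings were chosen after seeing the data. So was the omission of replicate 2 of petioles in air for GEMC01067524.1, whose petiole response reversed to 1.82 at 1 day and 2.10 at 2 days. The petiole means in air were then 0.256 and 0.164 CPM, near the floor of 3 counts. None of the named changes between days reversed. With 3 libraries a group, small differences could not be detected.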
